A study of Homo sapiens with 12 samples.

Results

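The perilipins are the 5 human genes PLIN1, PLIN2, PLIN3, PLIN4 and PLIN5, which encode coat proteins of lipid droplets. They were read here through the binding of PPARγ, a nuclear receptor, in their neighbourhood. A binding peak was assigned to a member when its summit lay within 50 kb of the gene's span in hg38. A peak of a pooled list was called reproducible when a peak of each of the 2 single libraries of its group overlapped it by at least 1 bp. The 5 members are 5 of 19970 protein-coding genes. Their windows held 6 of the 2846 pooled peaks of the mutant receptor and 22 of the 25164 pooled peaks of the wild-type receptor. With the wild-type list shortened by q to the length of the mutant list, its count was 9, against 6 for the mutant.

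The study measured PPARγ binding by chromatin immunoprecipitation and sequencing (ChIP-seq) in MCF10A-NeuT cells, which derive from the human breast epithelial line MCF10A and were transformed by NeuT. The cells carried a retroviral construct (pMSCV-IRES-GFP) and stably expressed PPARγ K154/155Q (KQ), in which lysines are replaced by glutamine and which the series describes as acetylation deficient, or wild-type PPARγ (WT). The series has 12 libraries in 6 groups of 2, and peak lists of the 2 KQ and the 2 WT ChIP libraries were used. The vector-control and input libraries were not analysed here. All 4 libraries share the NeuT background and the stable viral expression of the receptor. The labels name an anti-PPARγ antibody while the series' description names an anti-Flag precipitation, so the cells' own receptor and the introduced one cannot be told apart. No label tells whether libraries 1 and 2 of a group stem from different cultures, and their spread may be technical. Peak lists hold no expression values, so the epithelial label was not checked against marker genes.

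Lipid droplets store triglyceride under a single layer of phospholipid, and perilipins on that surface control which lipases reach the core. PPARγ binds DNA with the retinoid X receptor at direct repeats of a short sequence, and it is best known as the regulator of fat cell formation, where perilipin genes are among its classical targets. PLIN1 is the perilipin of fat cells, PLIN4 is abundant in white fat, PLIN2 and PLIN3 are found in most cells, and PLIN5 is found in tissues that burn fat such as heart and muscle.

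The promoter of PLIN4 is shown because it was the one perilipin promoter lying under a WT peak. It spans chr19:4518437-4518736 of GRCh38.p14 (hg38) on the minus strand, from 250 bases before to 50 bases after the gene start. The sequence is taken from RefSeq and written 5′ to 3′ in the direction of the gene. Capitals mark the stretch closest to a PPAR response element, which is made of 2 copies of AGGTCA in the same direction, 1 base apart.
PLIN4 promoter: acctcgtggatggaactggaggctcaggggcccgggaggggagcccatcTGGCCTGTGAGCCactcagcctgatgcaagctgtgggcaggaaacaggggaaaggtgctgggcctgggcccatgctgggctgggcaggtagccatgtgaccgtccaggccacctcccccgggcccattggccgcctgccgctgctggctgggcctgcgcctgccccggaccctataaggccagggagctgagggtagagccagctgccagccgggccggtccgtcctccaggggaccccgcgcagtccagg
The marked stretch lies on the opposite strand, 201 to 189 bases upstream of the start, and 12 bases from the summit of the WT peak. It differs from the element at 3 of the 12 scored bases. Both strands were searched, and up to 3 mismatches counted as a match. Among 22131 promoters of protein-coding genes 19.0% held such a match, and among the 287 promoters under a reproducible WT peak 37.6% did. A match of this kind is common and is given as a description of the letters.

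A stretch with the fewest mismatches in each perilipin promoter is shown so that the 5 can be compared. Where stretches tied, as in PLIN3, the one furthest upstream is given. Each stretch is written 5′ to 3′ in the direction of the element. Capitals mark letters equal to the element, and the single spacer base in the middle is not scored.
PLIN4: gGcTCACAGGcCA
PLIN1: gGcTCAGAGGaCt
PLIN5: tGGcCACctGTCA
PLIN2: AGccCgAgtGTCA
PLIN3: AGGggAGgGagCA
The PLIN1 and PLIN5 stretches have 4 mismatches, and the PLIN2 and PLIN3 stretches have 5. At up to 4 mismatches 72.6% of all promoters held a match. No perilipin promoter held a single exact AGGTCA on either strand, which 11.9% of all promoters did. No reproducible WT peak overlapped the promoter of PLIN1, PLIN2, PLIN3 or PLIN5, and 1.30% of protein-coding promoters had such an overlap.

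KQ libraries 1 and 2 held 1263 and 1035 peaks in all, against 18143 and 17859 in WT libraries 1 and 2. Mapped read totals were not used here, and depth is unknown. The authors' fold and p of each peak returned a whole number of sequence tags at the summit for 100% of peaks of each list, and the median was 17 and 16 tags in the KQ libraries, against 15 and 8 in the WT libraries. The lowest background that at least 5 peaks shared was 0.613 and 0.588 tags in the KQ libraries, against 0.381 and 0.145 in the WT libraries. KQ lists were thus much shorter, although the median tags of their called peaks were higher. Each median covers the called peaks of its own list, so it does not compare the receptors at the same sites. Every count below stands beside that difference in list length.

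With KQ, peaks were called near PLIN1 and PLIN2 in both libraries, and none was called near PLIN3, PLIN4 or PLIN5 in either library. With WT, all 5 genes had at least 1 peak in each library. A peak that was not called lies below the authors' threshold and is not a measured absence of binding. The 5 windows together held 3 and 3 peaks in KQ libraries 1 and 2, against 14 and 12 in WT libraries 1 and 2. The means were 3 ± 0 peaks for KQ and 13 ± 1.41 for WT (SD, n = 2 each), 4.33 times more for WT. The groups did not overlap, and the exact two-sided permutation p of the difference of -10 peaks was 0.333, the smallest that 2 libraries against 2 allow.

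Covered length told the same order, with 848 and 690 bp in KQ libraries 1 and 2, against 3881 and 3081 bp in WT libraries 1 and 2 (exact permutation p = 0.333). The whole lists differed more than the perilipin windows, since WT libraries held 15.7 times more peaks in all. Perilipin peaks therefore made up 0.238% and 0.290% of all peaks in the KQ libraries, against 0.0772% and 0.0672% in the WT libraries (exact permutation p = 0.333). The share was higher in each KQ library than in each WT library, with list lengths that differ.

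**Figure D1:**
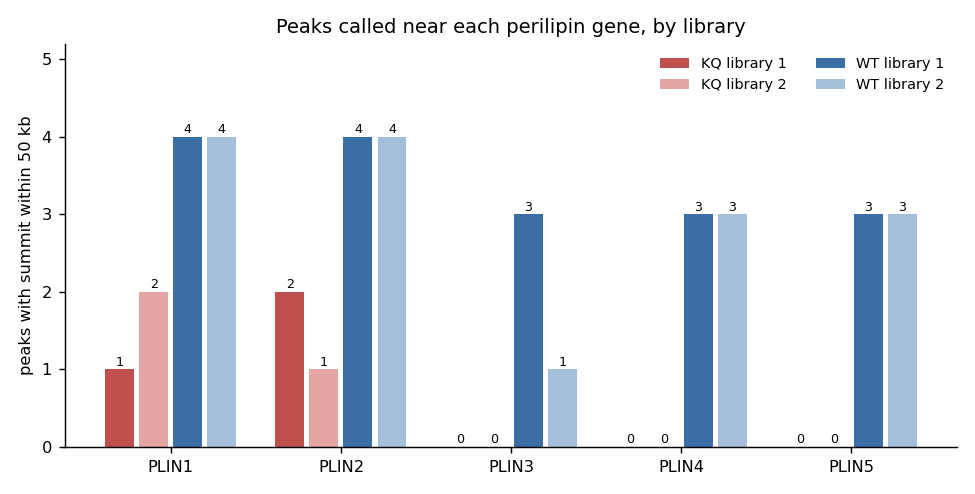
Number of peaks (vertical axis) with a summit within 50 kb of each perilipin gene (horizontal axis) in the single-library lists of KQ (red) and WT (blue), with the counts printed over the bars. KQ bars are 1 or 2 high at PLIN1 and PLIN2 and 0 at the other three genes, while WT bars lie between 1 and 4 at all 5 genes; PLIN4 and PLIN5 are neighbours and share their peaks.

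In the pooled lists, 2 of the 5 genes had a reproducible KQ peak, PLIN1 and PLIN2, where 2.68% of all protein-coding genes had one. With a window of 10 kb the count was 1 gene, PLIN1, since the reproducible KQ site of PLIN2 lies 34.4 kb from its start. PLIN1 and PLIN2 were also the genes with any pooled KQ peak, against 16.4% of all genes. All 5 genes had a reproducible WT peak, where 37.7% of all genes had one, and 67.1% of all genes had a pooled WT peak. Among the 4282 genes with spans as long as those of the members, 2.38% had a reproducible KQ peak and 34.8% a reproducible WT peak. PLIN4 and PLIN5 lie side by side on chromosome 19 and share 3 reproducible WT peaks, so the 5 genes are not independent of each other.

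**Figure D2:**
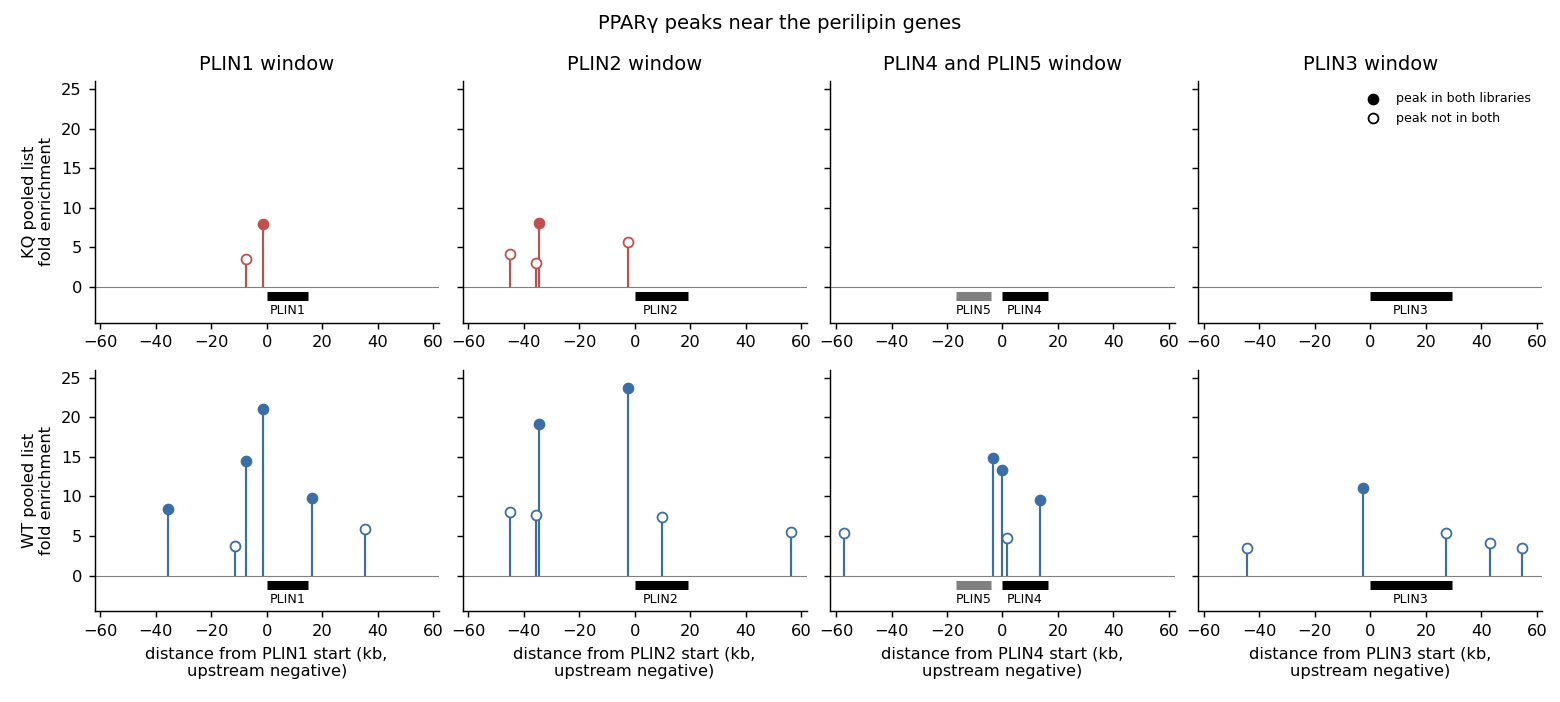
Peaks of the KQ (upper row) and WT (lower row) pooled lists by distance of the summit from the gene start in kb (horizontal axis, upstream negative) and by the authors' fold enrichment (vertical axis); bars below the line are gene spans, and filled circles are reproducible peaks. Each of the 6 KQ peaks stands at the position of a WT peak, near PLIN1 and PLIN2, and the PLIN3, PLIN4 and PLIN5 windows hold WT peaks only.

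PLIN1, which in resting fat cells keeps lipases away from stored triglyceride, lies on the minus strand of chromosome 15 (89664367 to 89679367, gene ID 5346). Its window held 2 pooled KQ peaks, 1 of them reproducible, and 6 pooled WT peaks, 4 of them reproducible. At least 4 reproducible WT peaks were found near 2.09% of all genes. No gene had that many reproducible KQ peaks.

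The site called in all 4 libraries had its WT summit 1371 bp upstream of the PLIN1 start, between PLIN1 and PEX11A, which encodes a peroxisomal membrane protein. The nearest gene span was that of PEX11A, 797 bp away, while the nearest gene start was that of PLIN1. In mouse, a shared PPAR response element between Plin1 and Pex11a has been described. The authors' fold enrichment there was 6.49 and 7.39 in KQ libraries 1 and 2, against 18.0 and 13.7 in WT libraries 1 and 2. In the pooled lists the KQ peak (chr15:89680617-89680898) had fold 7.95 and −log10 q 24.8, and the WT peak (chr15:89680316-89680900) had fold 21.0 and −log10 q 74.0. These folds are relative to each list's own background and are set side by side only; within its own list, by q, the KQ peak stood in the top 2.39% of 2846 peaks, and the WT peak in the top 0.314% of 25164.

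A second KQ peak lay 7.3 kb upstream of the PLIN1 start, inside the PEX11A span, and was found in KQ library 2 (fold 5.45) but not in KQ library 1. Its WT counterpart (chr15:89686584-89686883) had fold 14.9 in WT library 1 and 9.68 in WT library 2. The other reproducible WT sites of PLIN1 had no KQ peak in any list. One lay 16.2 kb downstream of the gene start (chr15:89663029-89663559, fold 7.14 and 8.44 in WT libraries 1 and 2), past the end of PLIN1 and 102 bp outside the span of KIF7, a kinesin of the primary cilium. Another lay 35.5 kb upstream, inside WDR93 (chr15:89714770-89715194), with fold 4.20 and 8.44 in WT libraries 1 and 2. The remaining 2 pooled WT peaks, at the shared start region of PEX11A and WDR93 and inside KIF7, had fold 3.74 and 5.90 and were found in no single library.

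PLIN4, which coats small new droplets in fat cells, lies on the minus strand of chromosome 19 (4502192 to 4518486, gene ID 729359). PLIN5, which links droplets to mitochondria, is its upstream neighbour on the same strand (4522531 to 4535224, gene ID 440503). No KQ peak was called in either window, in the pooled list or in either library. WT had 4 pooled peaks near PLIN4 and 5 near PLIN5, of which 4 are common to both windows, and 3 of these were reproducible.

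The reproducible WT peak on the PLIN4 promoter shown above (chr19:4518484-4518792) had its summit 177 bp upstream of the start and covered 253 of the 300 promoter bases. Its fold was 8.22 in WT library 1 and 19.8 in WT library 2. By fold it stood among the top 23.6% of peaks in WT library 1 and the top 0.235% in WT library 2, so the libraries placed it differently by fold. By q it ranked 569th of 18143 peaks in WT library 1 and 23rd of 17859 in WT library 2. In the pooled WT list it ranked 113th of 25164 by q, with −log10 q 67.9.

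The WT peak of highest pooled fold (14.9) in the pair of windows lay between the genes, 3.2 kb upstream of the PLIN4 start and 797 bp past the end of the PLIN5 span (chr19:4521613-4521948). Its fold was 13.5 and 14.0 in WT libraries 1 and 2, close to each other. The third lay inside PLIN4, 13.4 kb into the gene (chr19:4504982-4505266), with fold 5.90 and 14.2 in WT libraries 1 and 2. The other pooled WT peaks of these windows, inside PLIN4 at 1.5 kb and upstream of PLIN5 at 40.3 kb, had fold 4.75 and 5.34 and were found in no single library. At least 3 reproducible WT peaks were found near 5.15% of all genes.

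PLIN2, the perilipin of most cell types and of milk fat globules, lies on the minus strand of chromosome 9 (19108388 to 19127492, gene ID 123). Its window held 4 pooled KQ peaks, 1 of them reproducible, and 6 pooled WT peaks, 2 of them reproducible. Each KQ peak there overlapped a WT peak. In the pooled KQ list PLIN2 had the most peaks of the 5 genes, but 2 of its 4 appeared in no KQ library, and in KQ library 2 it had 1 peak where PLIN1 had 2. Its distal site had the highest pooled KQ fold near a perilipin.

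That distal site lay 34.4 kb upstream of the PLIN2 start, outside any protein-coding gene, and PLIN2 was the nearest one. Its fold was 7.29 and 12.5 in KQ libraries 1 and 2, against 12.7 and 20.6 in WT libraries 1 and 2. It ranked 5th by fold of the 1035 peaks of KQ library 2 and 250th of the 1263 peaks of KQ library 1. In WT library 2 it ranked 29th by fold of 17859 peaks, and in WT library 1 it ranked 960th of 18143. The pooled KQ peak (chr9:19161595-19162041) had fold 8.14 and −log10 q 32.3, and the pooled WT peak (chr9:19161574-19162098) had fold 19.2 and −log10 q 86.8. By q it ranked 44th and 6th in KQ libraries 1 and 2, and 94th and 41st in WT libraries 1 and 2. Ranked by q it thus stood near the top of all 4 lists, and ranked by fold it stood lower in library 1 of both receptors.

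The WT peak of highest fold near any perilipin lay 2.4 kb upstream of the PLIN2 start (chr9:19129699-19130012, pooled fold 23.6). Its fold was 20.8 in WT library 1 and 8.93 in WT library 2. KQ had a peak there in library 1 (fold 4.63) and none in library 2, and the pooled KQ peak had fold 5.67. The 2 other KQ peaks of PLIN2, 44.8 kb and 35.6 kb upstream, had pooled fold 4.16 and 3.05 and appeared in no KQ library. Their WT counterparts had pooled fold 8.06 and 7.71 and appeared in 1 WT library each. The remaining WT peaks, 10.0 kb into PLIN2 and 56.4 kb downstream of its start inside HAUS6, a subunit of the augmin complex of the spindle, had fold 7.36 and 5.53 and appeared in 1 WT library each.

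PLIN3, which moves from the cytosol onto new droplets, lies on the minus strand of chromosome 19 (4838341 to 4867667, gene ID 10226). No KQ peak was called in its window in any list. WT had 5 pooled peaks and 1 reproducible peak, 2.7 kb upstream of the start (chr19:4870221-4870462), with fold 7.10 and 11.9 in WT libraries 1 and 2. The other 4 pooled WT peaks had fold 3.48 to 5.43. They lay in ARRDC5 and UHRF1, a factor of DNA methylation maintenance, inside PLIN3 itself, in TICAM1, an adaptor of Toll-like receptors, and beyond it. PLIN3 had the fewest reproducible WT peaks of the 5 genes.

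**Figure D3:**
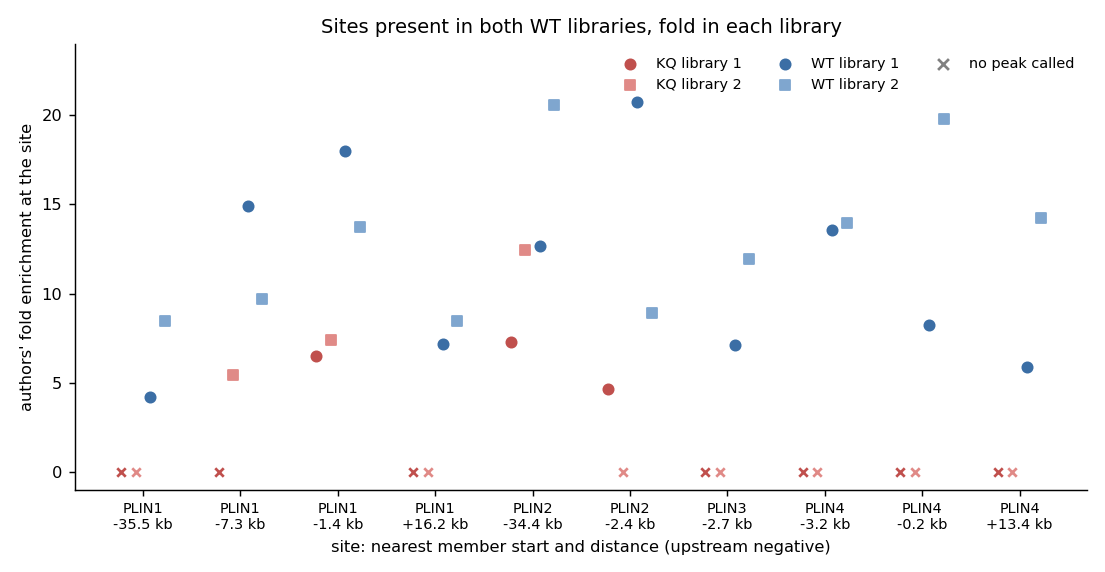
Authors' fold enrichment (vertical axis) in each KQ (red) and WT (blue) library at the 10 reproducible WT sites, named by the nearest perilipin start and the distance to it in kb (horizontal axis, upstream negative). Crosses on the line at 0 mark libraries with no called peak and are not measured values; KQ peaks stand at 4 sites, all of PLIN1 or PLIN2, with fold 4.63 to 12.5.

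Of the 22 WT peaks near perilipins, 6 (27.3%, exact binomial 95% interval 10.7% to 50.2%) were overlapped by a pooled KQ peak, where 9.10% of all pooled WT peaks were. In the other direction all 6 KQ peaks overlapped a WT peak (54.1% to 100%), where 80.4% of all pooled KQ peaks did. At these 6 sites the KQ and WT summits lay a median of 19.5 bp apart, with a range of 7 to 57 bp. Intervals cover counting error only, and peaks near 1 gene share their neighbourhood.

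Of the WT peaks near perilipins, 10 of 22 were reproducible (45.5%), where 31.9% of all pooled WT peaks were. Of the KQ peaks, 2 of 6 were reproducible (33.3%), where 12.4% of all pooled KQ peaks were. Of the 10 reproducible WT peaks, 4 were overlapped by a KQ peak (40%, exact binomial 95% interval 12.2% to 73.8%), where 20.1% of all reproducible WT peaks were. The 4 overlapped ones had pooled WT fold 14.4 to 23.6 and the 6 others 8.40 to 14.9. These ranges overlapped at the site between PLIN4 and PLIN5, whose fold of 14.9 exceeded that of the PLIN1 site 7.3 kb upstream, which had a KQ peak.

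Over the whole list, the share of WT peaks found with KQ was larger among strong peaks. With all WT peaks ranked by q and cut into 10 equal bins, 37.4% of the highest bin were overlapped by a KQ peak, and 2.74% of the lowest bin. Of the 22 perilipin WT peaks, 9 stood in the highest bin, and 4 of these 9 had a KQ peak (44.4%, exact binomial 95% interval 13.7% to 78.8%). That interval holds the share of the whole bin, but from 9 peaks it is too wide to show likeness or difference. Several of the 9 also share a window, so they are not independent.

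**Figure D4:**
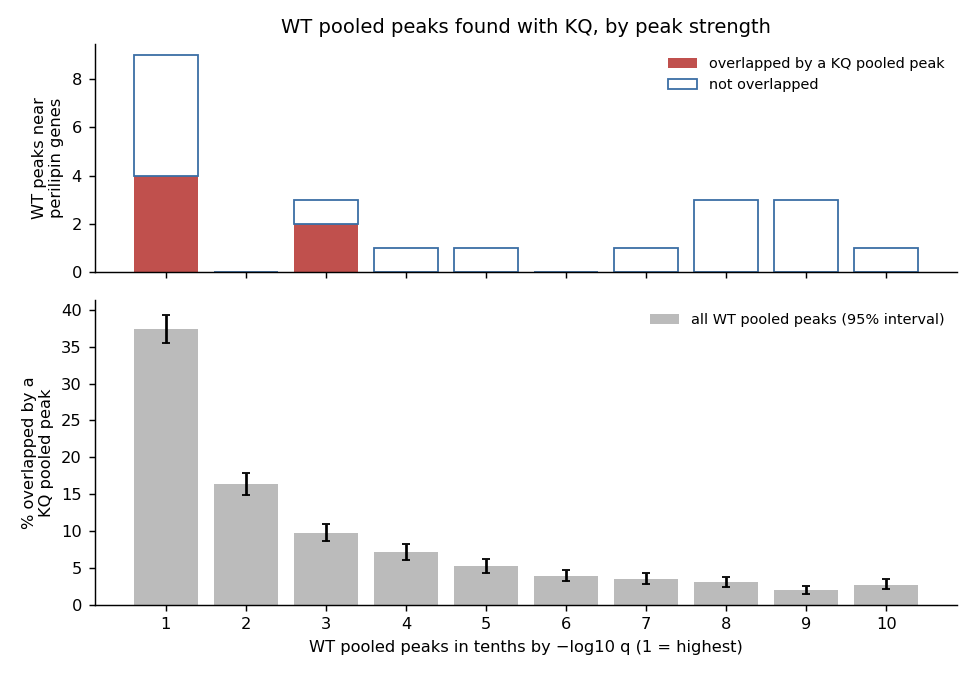
WT pooled peaks in 10 equal bins by −log10 q (horizontal axis, 1 is the highest): the number near perilipin genes with (red) and without (white) an overlapping KQ pooled peak (upper panel), and the percent of all WT peaks of the bin with one (lower panel, bars with exact binomial 95% intervals). The highest bin holds 9 perilipin peaks, 4 of them with KQ, beside 37.4% of all its peaks.

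Tags at the summit were compared at the 2 sites called in all 4 libraries. At the PLIN1 site 1.4 kb upstream, KQ libraries 1 and 2 had 24 and 27 tags, against 59 and 21 tags in WT libraries 1 and 2. These numbers overlap between the groups (ratio of means, KQ over WT, 0.638, exact permutation p = 1). Divided by the lowest background of each library, KQ libraries 1 and 2 had 39.1 and 45.9, against 154.7 and 145.2 in WT libraries 1 and 2. The scaled means were 42.5 ± 4.80 for KQ and 149.98 ± 6.72 for WT (SD, n = 2 each), a ratio of 0.283 with an exact permutation p of 0.333.

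At the PLIN2 site 34.4 kb upstream, KQ libraries 1 and 2 had 38 and 32 tags, against 71 and 32 tags in WT libraries 1 and 2 (ratio 0.680, exact permutation p = 1). Scaled values were 61.9 and 54.4 in KQ libraries 1 and 2, against 186.2 and 221.3 in WT libraries 1 and 2. The scaled means were 58.2 ± 5.33 for KQ and 203.8 ± 24.8 for WT (SD, n = 2 each), a ratio of 0.286 with an exact permutation p of 0.333. At both sites the scaled values of the groups were apart and the unscaled ones were not. Scaling takes the lowest background as a measure of depth, which holds only if the caller set it on the scale of the ChIP tags.

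**Figure D5:**
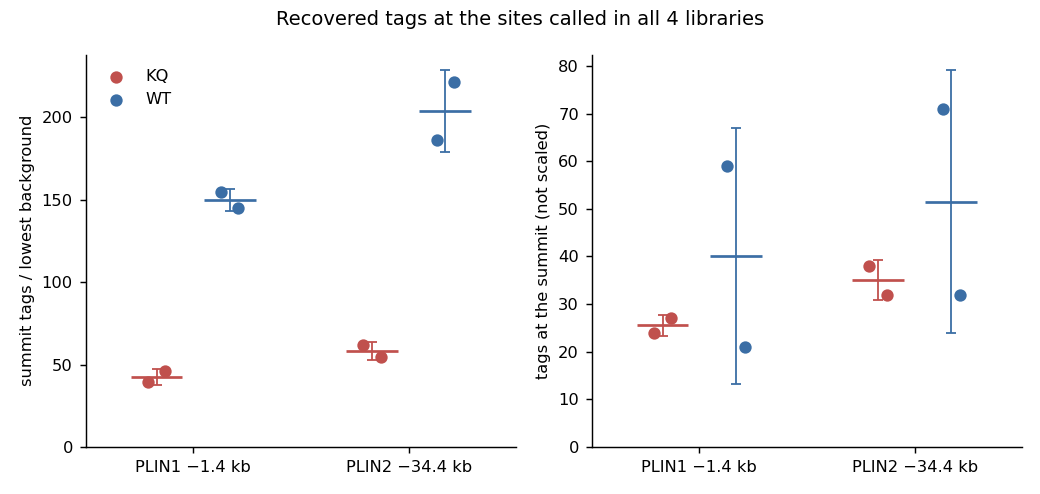
Tags at the summit in KQ (red) and WT (blue) libraries at the 2 sites called in all 4 libraries (horizontal axis), divided by the lowest background of the library (left) and as recovered (right); points are libraries, horizontal lines are means and error bars SD (n = 2). KQ lies below WT at both sites on the left, while on the right WT library 2 lies at or below the KQ values.

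Over the 6 shared perilipin sites, the ratio of scaled tags in the pooled lists, KQ over WT, ran from 0.206 at the PLIN1 site 7.3 kb upstream to 0.505 at the PLIN2 site 44.8 kb upstream, with a median of 0.298. Over all 2289 WT peaks overlapped by a KQ peak the median was 0.353, with quartiles of 0.261 and 0.492. The whole range was wide, 0.0706 to 2.04, and held the perilipin sites. The PLIN1 site 7.3 kb upstream and the PLIN2 site 2.4 kb upstream (0.245) lay below the first quartile. The PLIN2 site 44.8 kb upstream, whose KQ peak was in no single KQ library, lay above the third. A ratio exists only where a KQ peak was called.

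By position, 8 of the 10 reproducible WT sites lay upstream of the perilipin start nearest to them, 5 of them within 5 kb. The same share over all reproducible WT peaks was not computed, so 8 of 10 is a description only. The 5 kb limit was not among the planned settings. At least 1 reproducible WT summit lay within 5 kb upstream of the start in 4 of the 5 genes, PLIN1, PLIN2, PLIN3 and PLIN4, where 3.09% of the 15812 protein-coding genes with a known start had one. The peaks nearest to PLIN5 lay at its far end, toward PLIN4. Of all 22 sites, 4 lay inside a perilipin span, and 11 were nearer to the span of another gene than to a perilipin. These 11 included every site of the PLIN1 window. Exons and introns were not used here.

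Genes with a span within 100 kb of a member's span were left out of the search for like genes. PEX11A, next to the PLIN1 site called in all 4 libraries, was thus not eligible. Among the remaining genes, MRTFB had highest folds most like those of PLIN1, at a Euclidean distance of 0.0832 on the log2(1 + fold) scale. RRS1 and ADHFE1, which share their peaks, followed at 0.201. For PLIN2 they were EPRS1, BPNT1 and IARS2, which share their peaks, at 0.485. PLIN3, PLIN4 and PLIN5 had peaks in 2 libraries only, and no like genes were sought for them.

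Of the other lipid droplet genes, 2 of 30 had a reproducible KQ peak (6.67%, exact binomial 95% interval 0.818% to 22.1%). That interval holds the 2.68% of all protein-coding genes. A reproducible WT peak was found near 20 of 30 (66.7%, exact binomial 95% interval 47.2% to 82.7%), beside 37.7% of all protein-coding genes. HSD17B11 and HSD17B13 share their reproducible WT peak, so the genes are not all independent of each other. A pooled peak was found near 14 of the 30 genes with KQ (46.7%, interval 28.3% to 65.7%) and near 28 with WT (93.3%, 77.9% to 99.2%). Of all protein-coding genes, 16.4% had a pooled KQ peak and 67.1% a pooled WT peak. These 16.4% and 67.1%, and the 37.7% above, lay below the matching intervals. The list was chosen with earlier results of these data known, and enrichment was not tested. The genes with a reproducible KQ peak were ACSL3, which activates fatty acids on new droplets (fold 8.19), and TMT1B, whose peak (fold 4.21) was nearest to RDH5. The highest folds of a reproducible WT peak were 17.9 at CAV1, which builds caveolae, 17.1 near G0S2, an inhibitor of triglyceride lipase, 16.0 in LIPE, hormone-sensitive lipase, 14.3 in PNPLA2, the triglyceride lipase that PLIN1 holds in check, and 13.6 in the window of HILPDA, where IMPDH1 was the nearest gene. The PNPLA2 peak was overlapped by a pooled KQ peak, and those of CAV1, G0S2, LIPE and HILPDA were not. All 5 folds were below the highest perilipin WT folds, 23.6 near PLIN2 and 21.0 near PLIN1. The highest in the PLIN4 and PLIN5 windows was 14.9, below those of CAV1, G0S2 and LIPE. The highest near PLIN3 was 11.1, below all 5.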

How the data were processed

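The libraries were PPARγ ChIP-seq, 2 with KQ and 2 with WT, grouped by the labels' titles. Bowtie2, MACS2, HOMER, bedtools, deepTools and the build hg38 are named in the submitters' processing notes, without roles. The authors deposited a peak list for each library and a pooled list for each receptor. Each deposited peak has a fold enrichment (a linear ratio), −log10 of a p-value, −log10 of a q-value and a summit offset from its start. Whether input served as a control in peak calling is not stated in the sources used. Read totals are not given, so depth is unknown. The exact permutation p-values compare these libraries only, and with 2 against 2 they cannot go below 0.333.

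Peaks on chromosomes 1 to 22 and X were joined to gene spans of RefSeq GRCh38.p14 with Python 3.11.15, numpy 2.4.6, scipy 1.17.1 and pandas 2.3.3. Whole tags and background were solved from each deposited fold and p-value, with the whole number accepted within a relative tolerance of 1e-05. Library values were compared by exact two-sided permutation, and shares have exact (Clopper-Pearson) 95% intervals. The scripts were tested on simulated data, in which 479 of 479 tag numbers were recovered.

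Named were all members, every reproducible peak, the highest pooled peak of each member and group, the droplet genes with a reproducible KQ peak or 1 of the 5 highest WT folds, the nearest gene of a described peak, and up to 3 genes most like a member with peaks in at least 3 libraries. The members and lists were chosen with earlier results of these data known. The alternatives were the window, the q threshold, the overlap, the list length, leaving out a library, and a replicate block. Vector-control and input libraries, proteins, exons and introns were not used here.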

Additional observations from a re-analysis of the deposited data

How the results depend on the processing

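With a window of 10 kb in place of 50 kb, the pooled peaks near perilipins numbered 3 with KQ and 11 with WT, the reproducible KQ peaks 1, and the genes with a reproducible KQ peak 1 (PLIN1). With the WT list shortened by q to the length of the KQ list, WT had 9 pooled peaks, all 9 reproducible and near all 5 genes, and 66.7% of the KQ peaks overlapped one. Leaving out 1 library at a time, the difference in peaks per library (KQ minus WT) ran from -11 to -9, and that in covered length from -3112 to -2312 bp. With 1 library of a group left out and the other alone required, reproducible peaks numbered 3 with KQ without either library, and 12 to 14 with WT, near 2 and 5 genes. With the replicate number as a block the differences were the same, -10 peaks and -2712 bp, with an exact p of 0.5, the smallest that 2 pairs allow; nothing in the labels ties equal numbers together. The pooled lists are the authors' own, so leaving a library out of them could not be run. Other settings (100 kb, −log10 q of at least 5, a stricter overlap) left each count within 1.5 times of that given. The other ways of comparing tags, by the single lowest background and without scaling, were chosen after seeing the data. The single lowest background gave ratios of 0.273 at the PLIN1 site and 0.276 at the PLIN2 site. Unscaled tags gave 0.638 and 0.680, where the groups overlapped. With 2 libraries a group the exact permutation test could not pass 0.05. A missing KQ peak lies below the authors' threshold and is not a measured absence of binding, and depth is unknown.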

Other observations

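Beyond the 50 kb windows, 1 reproducible KQ peak lay 99.67 kb from the PLIN4 span (chr19:4402371-4402641, fold 7.57, −log10 q 16.3) and 118 bp outside CHAF1A, which encodes a subunit of the chromatin assembly factor. No pooled WT peak overlapped it, though WT library 2 held a peak there and WT library 1 did not. The 1 reproducible WT peak in this outer range lay 68.6 kb from PLIN3 (chr19:4769612-4769832, fold 14.1), with FEM1A the nearest gene, and no KQ list held it.

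In the promoter of WDR93, next to PEX11A upstream of PLIN1, RefSeq GRCh38.p14 holds a stretch with 3 mismatches to the PPAR response element (chr15:89690640-89690652, plus strand). It lies inside a WT pooled peak of fold 3.74 that was found in no single library, 47 bases from the summit. A match at up to 3 mismatches is common, since 19.0% of all protein-coding promoters held such a stretch.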
